A study of Arabidopsis thaliana with 9 samples.

Results

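The genes described here are 67 genes of Arabidopsis thaliana that carry no symbol beyond their locus code and whose array signal was near its starting level after 2 d on the compound FPX but at least 1.5 lower, on a log2 scale, after 8 d. They came from 5072 probe sets of single genes named by a locus code alone, within 11228 probe sets measured. The members were chosen from group means of log2(signal + 16): the change at 2 d against 0 d had to lie between −0.3 and 0.3, and the change at 8 d against 0 d had to be −1.5 or lower. Both values, and the step from 2 d to 8 d that follows from them, are therefore given as a description and carry no test. Each of the 67 probe sets stood for a different gene, all 67 matched the RefSeq gene table by identifier, and all 67 were listed as protein coding.

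The 3 groups were wild-type whole seedlings, 4 d old at the start, taken at 0 d before transfer, and after 2 d and 8 d on MS medium with 45 µM FPX, with 3 arrays each. The series title presents FPX as a chemical that induces callus and shoot regeneration. Untreated seedlings 2 d and 8 d older were not analysed here, so treatment and age cannot be told apart, and since the raw data of the 0 d arrays also belong to another series, a difference between hybridizations cannot be told apart from treatment either. The arrays of a group are numbered without a statement that they came from separate cultures, so the spread and the p-values below may be technical. RNA came from whole seedlings, where fewer cells of a type and less RNA per cell cannot be told apart.

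A locus code names a gene by its place: the digit after AT is the chromosome, and the number after G orders genes along it. Callus is a mass of dividing cells that forms when differentiated tissue is set back into growth, and in Arabidopsis it is known to arise largely along a root-like path. Green seedling tissue, in contrast, carries chloroplasts whose photosystems, NDH complex and carbon-fixing enzymes are built largely from nuclear genes.

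All deposited values were positive MAS5 intensities on a linear scale, and the 75th percentile of an array lay between 1046 and 1103. Nearly every probe set in it differs among the groups, with a one-way p of 0.04 or lower for 11202 of 11228 (99.8%), so the deposited table is a selection. Counts below are therefore no shares of the genome. The median change of all probe sets was 0.17 at 2 d and 0.36 at 8 d, and 7 hybridization controls changed by a mean of −0.10 and −0.25 and 5 poly(A) controls by −0.37 and −0.57. Changes of single genes below are on the deposited scale. The medians of 0.17 and 0.36 come from a selected table, and the controls changed the other way. A neutral level to read changes against was therefore not settled. Without detection calls, signal above background is unknown. A level of one probe set is not set against that of another.

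Among the 67 genes the change at 8 d ran from −4.63 to −1.52, with a median of −1.80, while the change at 2 d ran from −0.30 to 0.28, with a median of −0.06. In signal, 3.60% to 33.9% of the 0 d mean was left at 8 d, with a median of 27.8%. A change of −2 or lower was found in 18 genes, and the other 49 lay from −1.98 to −1.52. In signal, 23 genes had less than 25% left, the 18 and 5 with changes just above −2 on the log2(signal + 16) scale, AT3G62820, AT1G78170, AT3G09580, AT4G38690 and AT1G49975. The standard error of a gene's change was 0.08 to 0.24. Of all 11228 probe sets 33.5% lay within the bound at 2 d, 8.12% met the one at 8 d and 1.59% met both. Of locus-code probe sets 1764 lay within the bound at 2 d and 341 met that at 8 d, and 264 of the 341 had also fallen by 0.3 or more at 2 d, while 10 had risen by 0.3 or more.

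**Figure D1:**
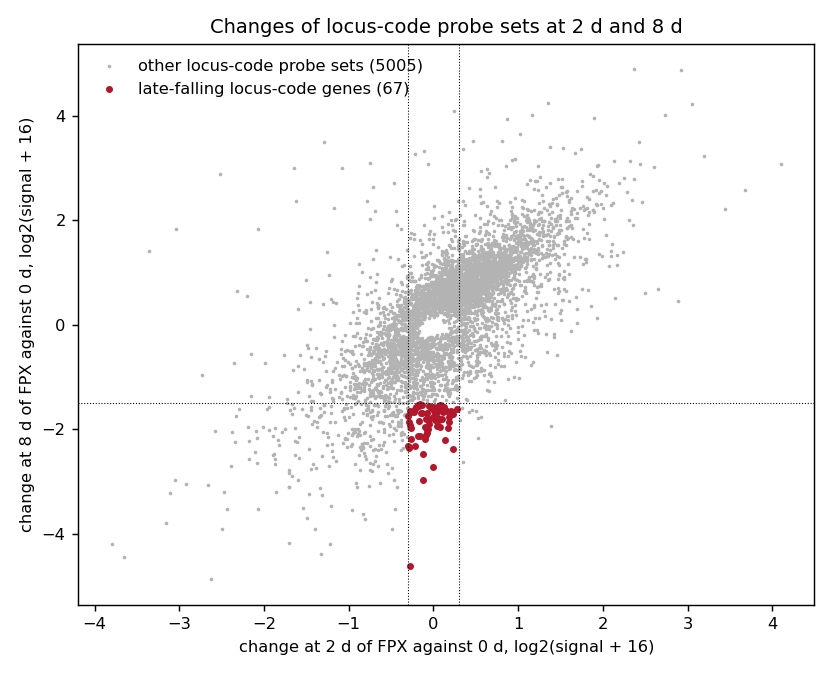
Change at 2 d (horizontal) against change at 8 d (vertical) on FPX, both against 0 d and in log2(signal + 16), for each of 5072 locus-code probe sets. Dotted lines mark the bounds, and the 67 genes within them are in red; the gap around the origin lies where probe sets that differ in no group would be, which the deposited table mostly leaves out.

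On every array of the 8 d group each of the 67 genes was below all 6 arrays of the 0 d and 2 d groups, against 26.4% of all probe sets. The gap between the highest 8 d array and the lowest other array had a median of 1.47 on the log2 scale and was smallest, at 0.72, in AT1G76110. At 0 d and 2 d the arrays overlapped in 51 of the 67, against 23.7% of all probe sets. The limma fit across all probe sets (Benjamini-Hochberg adjusted p under 0.05) called 67 lower at 8 d than at 0 d, where 36.1% of all probe sets were lower and 54.9% higher. It called 67 lower at 8 d than at 2 d, beside 32.1% of all. At 2 d it called 4 of the 67 lower, beside 28.1%, and 2 higher, beside 44.6%. The rule fixed these directions, so nothing is read from these counts. Rises made up 61.3% of all calls at 2 d, and 46.4% with array medians set to equal, 51.0% after quantile normalization and 70.0% under the scaling on hybridization controls.

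**Figure D2:**
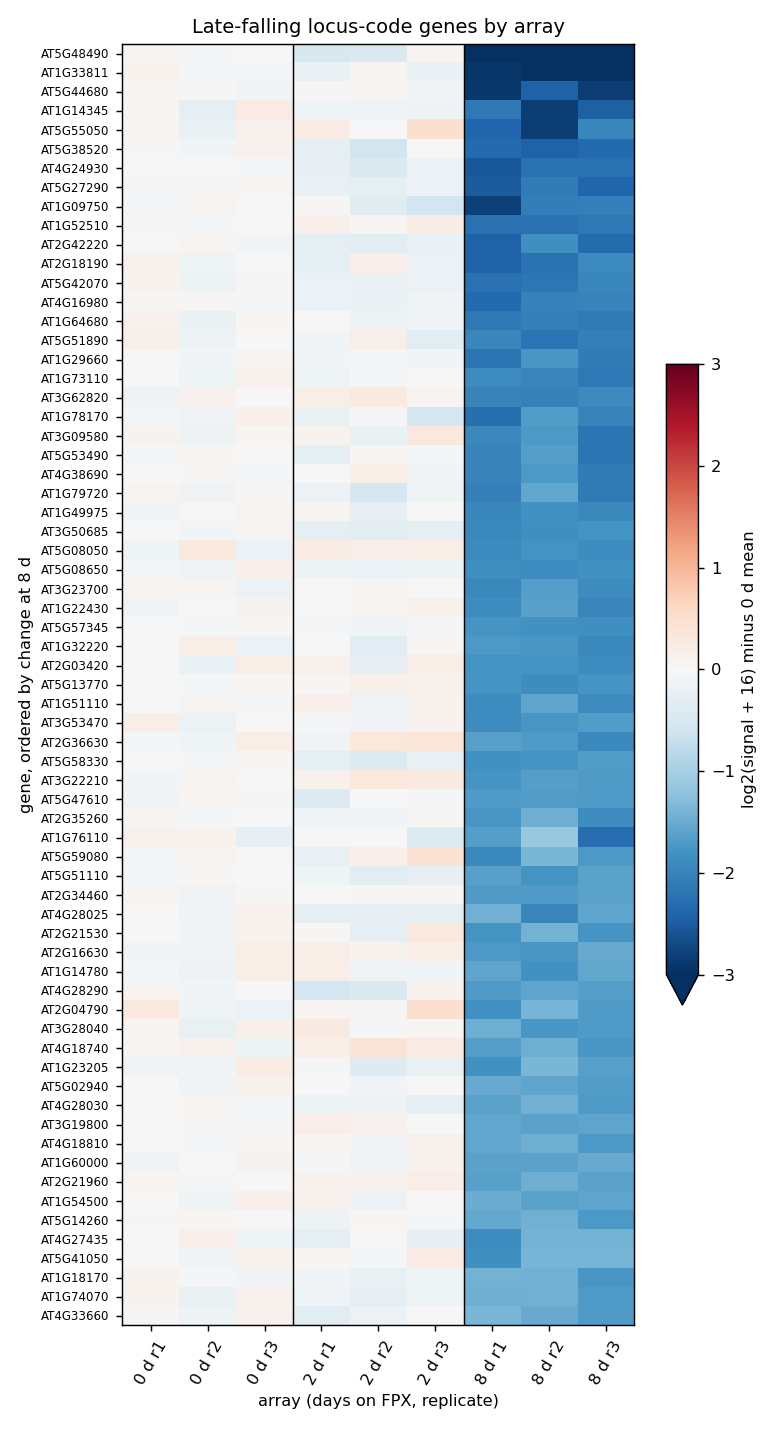
Each row is one of the 67 genes, ordered by its change at 8 d, and each column is an array; colour gives log2(signal + 16) minus the gene's 0 d mean, and values under −3 share the darkest blue. The 2 d columns stay near the 0 d level, within 0.30 in the group mean, and all 8 d columns are lower.

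The fall was largest in AT5G48490, a gene on chromosome 5 with no descriptive name in the tables used here. It gave signals of 3237, 3032 and 3077 at 0 d, 2232, 2283 and 3306 at 2 d and 108, 92.3 and 136 at 8 d. The change at 8 d was −4.63 ± 0.16 (SE), which left 3.60% of the signal, and its change at 2 d, −0.28, was close to the lower bound. On the 2 d arrays replicates 1 and 2 were below all 0 d arrays and replicate 3 was above them.

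The next largest falls were those of AT1G33811, AT5G44680 and AT1G14345. AT1G33811 had signals of 1369.6, 1239 and 1229.8 at 0 d, 1102, 1322 and 1114 at 2 d and 155, 149.8 and 145 at 8 d, a change of −2.96 ± 0.09 (SE). For AT5G44680 the signals were 1088, 1095 and 999.8 at 0 d, 1079, 1122 and 977 at 2 d and 128, 184 and 135 at 8 d, and the change was −2.72 ± 0.12 (SE). In both genes the 0 d and 2 d arrays overlapped, and they had 11.7% and 14.0% of their signal at 8 d. AT1G14345, with signals of 2386, 1941 and 2789.8 at 0 d, 2144, 2196 and 2124 at 2 d and 520.1, 318 and 417 at 8 d, changed by −2.47 ± 0.16 (SE), and its 8 d replicates 1 and 2 differed more than any pair of its 2 d arrays.

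AT5G55050 stood at the upper side of the 2 d band, with a change of 0.23, before its fall. Its signals were 683, 573 and 726 at 0 d, 764, 657 and 929 at 2 d and 114, 78.8 and 158 at 8 d, and the 8 d change was −2.39 ± 0.20 (SE). The 8 d arrays of this gene spread widely, with a log2 SD of 0.44. AT5G38520, AT4G24930 and AT5G27290 behaved alike in size, with changes at 8 d of −2.37, −2.33 and −2.32. AT5G38520 had signals of 1884, 1850.1 and 2115 at 0 d, 1579, 1331 and 1929 at 2 d and 374, 347 and 374 at 8 d. In AT4G24930 they were 1844, 1837 and 1767 at 0 d, 1526, 1333 and 1603 at 2 d and 301, 373 and 375 at 8 d, and in AT5G27290 842, 841 and 899 at 0 d, 739, 714 and 759 at 2 d and 140.1, 189 and 153 at 8 d. The last 2 were lower on all 2 d arrays than on any 0 d array, by −0.29 and −0.22.

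AT1G09750, AT1G52510, AT2G42220 and AT2G18190 complete the 12 lowest changes. Signals of AT1G09750 were 1607, 1788 and 1667 at 0 d, 1728, 1312 and 1133 at 2 d and 228, 386 and 393 at 8 d, with 1 of the 2 d arrays inside the 0 d range and the other 2 below it, and an 8 d change of −2.31 ± 0.19 (SE). AT1G52510 went the other way first: its signals of 1612, 1547 and 1561 at 0 d, 1745, 1643 and 1830.4 at 2 d and 323, 323 and 346 at 8 d put all 2 d arrays above all 0 d arrays (0.14), before a change of −2.20 ± 0.08 (SE) at 8 d. AT2G42220 gave 4449, 4697 and 4229 at 0 d, 3718, 3503 and 3873 at 2 d and 818, 1231 and 884 at 8 d, changing by −0.27 at 2 d and −2.19 ± 0.13 (SE) at 8 d. AT2G18190 had signals of 317, 264 and 286 at 0 d, 234, 322 and 254 at 2 d and 41.0, 48.8 and 64.6 at 8 d, and at 8 d a change of −2.19 ± 0.14 (SE). At that level the added 16 takes up part of the signal, so the log2 value understates its fall.

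**Figure D3:**
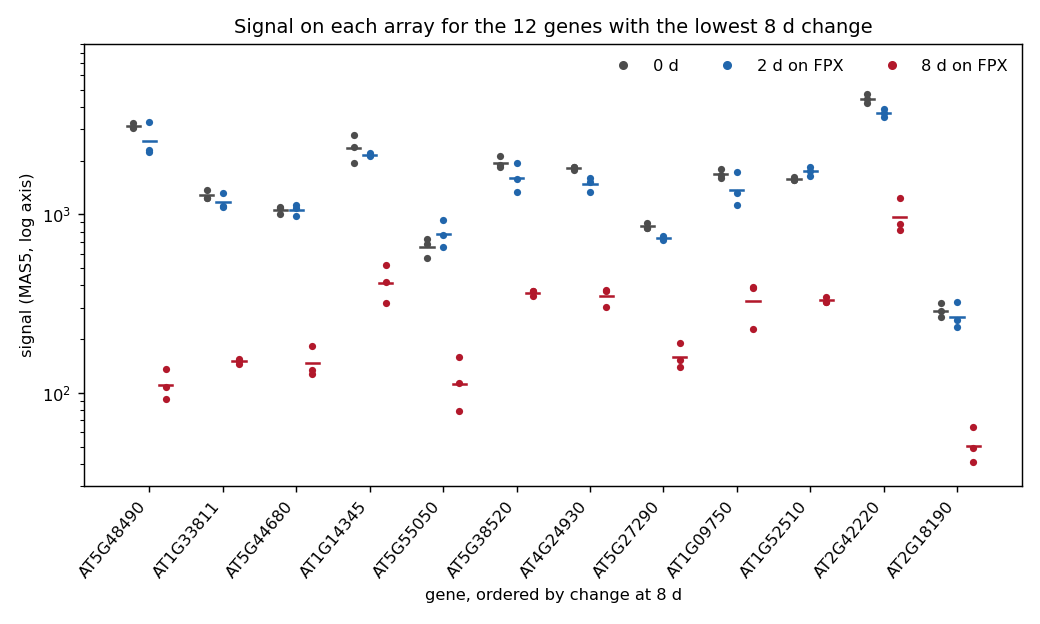
Signal on a log axis for the 12 genes with the lowest change at 8 d; each point is an array and each bar the geometric mean of 3. The 8 d points of every gene lie below its other 6, and the 0 d and 2 d points lie together or apart by at most 0.30 on the log2(signal + 16) scale in the mean.

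Of the other 6 genes with a change of −2 or lower, AT4G16980 had signals of 6646, 6564 and 6156 at 0 d, 5717, 5634 and 6041 at 2 d and 1271, 1580.1 and 1587 at 8 d, a change of −2.12. The values for AT1G29660 were 3080.0, 2888 and 3236 at 0 d, 2889, 2941 and 2886 at 2 d and 662, 903 and 703 at 8 d, a change of −2.01 with overlapping 0 d and 2 d arrays. AT5G42070, AT1G64680 and AT5G51890 changed by −2.13, −2.10 and −2.07. In these and in AT1G73110 between 21.9% and 23.6% of their signal was left.

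AT5G58330 is the only one of the 67 for which the gene table gives a descriptive name, NADP-dependent malate dehydrogenase (NADP-MDH), a chloroplast enzyme that turns oxaloacetate to malate with NADPH and so lets reducing power leave the chloroplast. Its signals were 4596, 4313 and 4673 at 0 d, 3776, 3413 and 3874 at 2 d and 1283, 1307 and 1406 at 8 d. All 2 d arrays were below all 0 d arrays, and at −0.30 it was the member nearest to the lower bound at 2 d. Its change at 8 d was −1.75 ± 0.08 (SE), and 29.4% of the 0 d signal was left. The other 66 had none, and apart from AT1G54500, which is on a list of photosystem assembly factors drawn up from general knowledge, no role is given for them.

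At 2 d the 67 genes were not uniform within the band. The change was below 0 in 41 and above 0 in 26. In 12 genes all 2 d arrays were below all 0 d arrays, among them AT5G58330, AT2G42220 and AT3G50685 (−0.29). In 4 genes all 2 d arrays were above all 0 d arrays: AT1G52510 (0.14), AT3G22210 (0.23), AT4G18740 (0.28) and AT2G21960 (0.13). AT4G18740 was the member nearest to the upper bound, with signals of 410.4, 443 and 359 at 0 d, 465, 532 and 484 at 2 d and 118, 135 and 109 at 8 d. AT3G22210 had 1334, 1492 and 1419.7 at 0 d, 1536, 1758 and 1704 at 2 d and 402, 442 and 423 at 8 d, so that both had somewhat higher signals at 2 d than at 0 d, and at 8 d they had 29.9% and 29.9% of the 0 d signal. Genes with hardly any difference between 0 d and 2 d were AT5G44680, AT3G53470, AT1G60000 and AT1G14780, each within 0.01 of 0 in the mean.

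At the bounds, AT4G33660 (−1.52) and AT1G74070 (−1.53) were the last genes inside at 8 d, and AT5G17700 and AT1G79510 (both −1.49) the first outside. Inside the lower bound at 2 d were AT5G58330 and AT1G09750 (both −0.30, in 2 decimals), and outside it AT4G26555 and AT5G59250 (also −0.30 after rounding). Above the upper bound AT1G65230 (0.31) and AT1G15260 (0.34) came first. These differences are small beside the standard errors, so the edges of the set are set by the thresholds.

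Replicates of the 67 genes were close at each time. The median SD of log2 values was 0.10 at 0 d, 0.11 at 2 d and 0.14 at 8 d, against 0.12, 0.10 and 0.11 over all probe sets. The widest 8 d spread was that of AT1G76110, with 8 d signals of 70.0, 107 and 39.4 and an SD of 0.57, and the tightest was that of AT5G47610, with 119, 120.2 and 118. At 8 d replicate 1 was the lowest array for 27 genes, replicate 2 for 17 and replicate 3 for 23, so each array was the lowest for part of the genes. The summed signal of the 67 lay between 101215 and 103891 at 0 d, between 94138 and 99439 at 2 d, and between 25842 and 27725 at 8 d.

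Membership depended on how arrays are brought to one level. With array medians set to equal, 41 of the 67 stayed within both bounds and 26 dropped below −0.3 at 2 d. Under the scaling on hybridization controls 37 stayed, 29 were above −1.5 at 8 d and 4 above 0.3 at 2 d. After quantile normalization 57 stayed. The change at 8 d was −1.27 or lower for every one of the 67 under these 3 scalings. Over all 15 alternatives 19 genes met the bounds each time, among them AT5G44680, AT1G52510, AT1G64680, AT5G51890, AT1G29660 and AT1G73110 of those with a change of −2 or lower. AT5G48490 met them in 13 and AT1G74070 in 7.

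**Figure D4:**
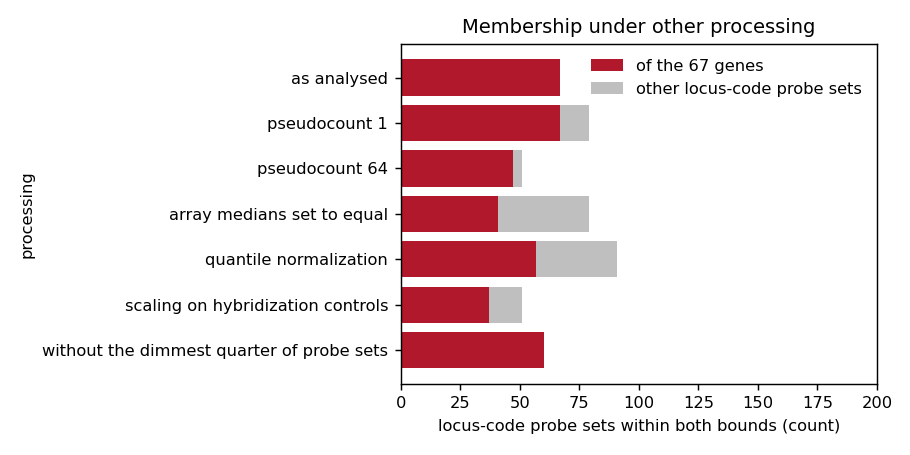
Number of locus-code probe sets within both bounds as analysed and under 6 other ways of processing; red gives those of the 67 genes that stayed and grey other probe sets that came in. Between 37 and 67 of the 67 stay, and up to 38 others come in.

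Only AT1G51110 among the 67 genes was measured by another probe set that stood outside the bounds. The member probe set had signals of 993, 1064 and 966 at 0 d, 1121, 932 and 1093 at 2 d and 263, 325 and 262 at 8 d, changes of 0.05 and −1.78. The other had mean signals of 921, 904 and 397, changes of −0.02 and −1.18, so both fell only after 2 d and differed in size. All 67 probe sets had the plain suffix of sets designed for 1 gene, as had 99.7% of locus-code probe sets.

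The 67 genes were spread over the genome: 20 on chromosome 1 (29.9%), 10 on chromosome 2 (14.9%), 8 on chromosome 3 (11.9%), 10 on chromosome 4 (14.9%) and 19 on chromosome 5 (28.4%). Locus-code probe sets as a whole had 26.2%, 14.5%, 20.6%, 14.3% and 24.4%. The difference from these shares was not tested. AT4G28025 and AT4G28030 were the only members that are direct neighbours, with changes of −1.67 and −1.58 at 8 d. AT4G28025 had signals of 1859, 1758 and 2061 at 0 d, 1565, 1578 and 1553 at 2 d and 680.0, 472 and 616 at 8 d, and AT4G28030 of 1266, 1346 and 1240.2 at 0 d, 1153, 1145 and 1037 at 2 d and 410.0, 464 and 383 at 8 d. In both, all 2 d arrays were a little below all 0 d arrays.

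Neighbouring genes were the protein-coding RefSeq genes directly next to a member on its chromosome, kept where the deposited table held a single-gene probe set for them. Members were left out of them. The deposited table is itself a selection of probe sets that differ among the groups. Of 37 measured genes directly next to one of 35 members, 13 were lower at 8 d than at 0 d in the limma fit (35.1%) and 22 higher (59.5%), shares near the 36.1% and 54.9% of all probe sets, and their median change was 0.43. Next to AT5G48490, AT5G48500 was higher (1.83, adjusted p = 7.11e-09 in limma), and next to AT5G42070, AT5G42060 was higher (2.05, adjusted p = 5.13e-07, limma). Next to AT1G29660, AT1G29670 was lower (−2.09, adjusted p = 5.03e-08, limma), and so were AT1G73120 next to AT1G73110 (−4.87, adjusted p = 1.64e-09, limma) and AT4G33666 next to AT4G33660 (−2.97, adjusted p = 9.52e-09, limma). The neighbour of AT4G27435 was PORB, a light-dependent enzyme of chlorophyll synthesis, which was lower as well (−2.04, adjusted p = 1.67e-08, limma). These neighbours were picked after their values were seen.

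**Figure D5:**
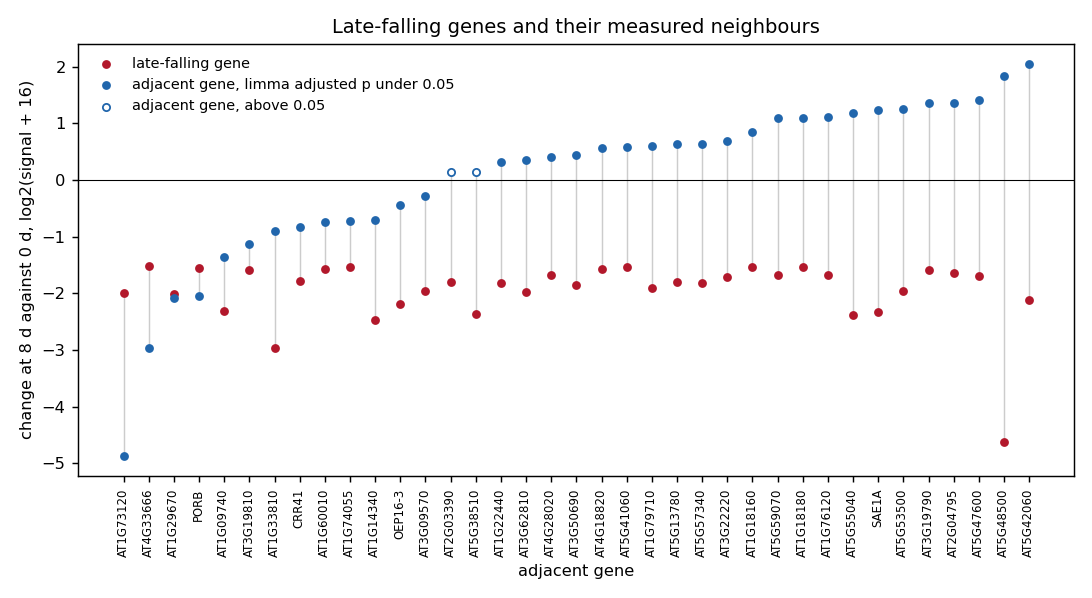
Change at 8 d against 0 d in log2(signal + 16) for each member with a measured neighbour (red) and for that neighbour (blue, open where the limma adjusted p was above 0.05), joined by a line and ordered by the neighbour's change. The red points are all at −1.52 or lower, while 24 of the 37 blue points are above 0.

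The same bounds held 178 of all 11228 probe sets, of which 67 were locus-code genes, 22 genes with a symbol, 88 probe sets not named here and 1 of several genes. As shares, that is 1.32% of locus-code probe sets and 2.42% of the 909 with a symbol. The 22 share only the bounds with the 67, so their roles say nothing of the roles of the 67. Of the 10 with the lowest change at 8 d, NdhN and NdhL are subunits of the chloroplast NADH dehydrogenase-like complex and CRR42 is, by its listed name, a further chlororespiratory reduction gene. CHLM makes a methylated magnesium porphyrin on the way to chlorophyll, TRXF2 is a chloroplast thioredoxin that switches carbon-fixing enzymes on in the light, and HCF101 serves assembly of photosystem I. Their changes at 8 d were −2.66, −2.59, −1.92, −2.18, −2.14 and −1.93. The remaining 4 were iqd21 (−2.74), of a family that binds calmodulin, the wall polysaccharide synthase gene CSLA03 (−2.27), the glutathione transferase gene GSTU18 (−2.13) and the MADS-box gene AGL87 (−1.91).

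Array values of 2 of these named genes show the same kind of step. CRR42 had signals of 434, 395 and 472 at 0 d, 413, 416 and 424 at 2 d and 92.2, 110.2 and 105 at 8 d. TRXF2 had 2317, 2482 and 2533 at 0 d, 1996, 2169 and 2011 at 2 d and 661, 524 and 457 at 8 d. In both, the 8 d arrays were below all others. At 2 d CRR42 overlapped its 0 d arrays (−0.05 in the mean), while all 2 d arrays of TRXF2 were a little below them (−0.25). These genes lie within the same bounds, so the likeness of their course follows from the rule and is no finding.

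Locus-code genes with other courses show where the 67 lie. A change of −1 or lower at 2 d and −1.5 or lower at 8 d was found in 114 locus-code probe sets of 113 genes, whose median was −1.57 at 2 d and −2.21 at 8 d. A late rise, within 0.3 of 0 at 2 d and at 1.5 or higher at 8 d, was found in 39, with a median of 1.77 at 8 d. The 67 fell from 2 d to 8 d by a median of 1.82, the 114 by 0.59. The bounds at 2 d differ between these sets, so this difference follows from the definitions.

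Genes of photosynthesis were counted from 9 lists of 150 locus codes fixed from general knowledge, of which 33 were measured. Measured means here that the deposited table held a probe set annotated to that gene alone. The others may be on the array but left out of the table or not annotated. Since the table is a selection, list genes without a change would mostly be among those missing. One list is that of photosystem assembly factors, and it includes AT1G54500, the only one of the 67 on any list, with signals of 2276, 2103 and 2551 at 0 d, 2513, 2038 and 2305 at 2 d and 804, 743 and 756 at 8 d and a change of −1.57 ± 0.10 (SE). Of the 32 others, 21 were lower and 1 higher at 2 d than at 0 d in limma, 32 were lower at 8 d than at 0 d, and 32 were lower at 8 d than at 2 d, beside 28.1%, 44.6%, 36.1% and 32.1% of all probe sets. Their median change was −0.34 at 2 d and −1.78 at 8 d, where all probe sets had 0.17 and 0.36. Within both bounds were 6 of the 32: NdhN, NdhL, PSBY, HCF101, PRK and CHLM. Chlorophyll synthesis genes were lower already at 2 d, 7 of 7 with a median of −0.73, while of photosystem I genes 0 of 2 were called at 2 d (median −0.11) and both were lower at 8 d (median −1.01). In the photosystem II list 4 of 6 were lower at 2 d and 6 of 6 at 8 d, in the NDH list 2 of 3 and 3 of 3, and in the Calvin cycle list 1 of 3 and 3 of 3.

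Between 2 d and 8 d, TAPX, a thylakoid ascorbate peroxidase, changed by −2.09 ± 0.10 (SE), with an adjusted p of 1.99e-08 in limma. Mean signals of TAPX went from 2136 ± 261 (SD, n = 3) at 0 d to 1580.0 ± 49.5 at 2 d and 358 ± 13.9 at 8 d. SBPASE of the Calvin cycle changed by −1.72 over the same step (limma adjusted p = 5.00e-08), the photosystem II repair protein gene PSB27 by −1.59 (5.75e-08, limma) and CHLI2, a subunit of magnesium chelatase, by −1.70 (4.18e-08, limma).

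Genes listed as tissue markers were few in the table, and whether each is particular to cells of its tissue was not checked. Of 8 genes listed for stomata 2 were measured, STOMAGEN and FMA, both lower at 8 d than at 2 d in limma. STOMAGEN had mean signals of 571 at 0 d, 198 at 2 d and 40.7 at 8 d. FMA had 122, 129 and 76.6, with SDs of 0.12, 29.5 and 29.2. At 2 d only STOMAGEN had fallen (−1.45, against 0.05 for FMA). The trichome gene SIM, 1 of 5, had array signals of 768 to 899 at 0 d, then 659 to 719.8, and 253 to 327 at 8 d, and lies within the bounds of the 67. Of 9 genes listed for root, PYK10 and NAI2 were measured, and they differed after 2 d. PYK10 had mean signals of 13680 at 0 d, 11028 at 2 d and 10437 at 8 d. NAI2 had 3872, 2642 and 3822, and was higher at 8 d than at 2 d (0.53, adjusted p = 0.00048, limma). Whether PYK10 and NAI2 stand for root alone in these whole seedlings was not tested. SWEET11 of 4 phloem genes had array signals of 2282 to 2447 at 0 d and 1663 to 1971 at 8 d, and OLEO3 of 7 seed genes had 60.3 to 71.3 and 124 to 146. None of 4 xylem and 3 shoot meristem genes had a single-gene probe set in the deposited table. All deposited values are positive and detection calls are missing, so a low marker signal does not show that a tissue was present. The part of a changed tissue make-up in the falls of the 67 genes was not tested.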

How the data were processed

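Transcript levels of 9 Affymetrix arrays were used, 3 each at 0 d, 2 d and 8 d. Per the submitters' processing notes the authors made the deposited values with MAS5, and these are array intensity values on a linear scale; version, scaling step and the filter behind the deposited table are not given in the sources used here. Columns were matched to samples by name. From 11249 rows, 21 Affymetrix controls were left out. Of the others, 5981 had 1 gene in the platform annotation (5962 matched to RefSeq, assembly TAIR10.1, by gene ID), 222 had several and 5025 were not listed.

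Values were analysed as log2(signal + 16), which understates changes at low signal, and dim rows were kept. In R 4.3.3, limma 3.58.1 with default eBayes settings was run on all 9 arrays with a mean for each group (6 residual and 5.24 prior degrees of freedom), two-sided, with Benjamini-Hochberg adjustment over 11228 probe sets and a threshold of 0.05. On simulated data for 8 d against 0 d with 11228 probe sets, the fit recovered 97 of 100 true 2-fold changes and 71 of 100 true 1.5-fold changes. It made 6 false calls. The simulation used normal noise, no selection of probe sets and no other changes. In the real data most probe sets were called at 8 d, so these rates need not hold there. Tables were handled in Python 3.11.15 with pandas 2.3.3, NumPy 2.4.6 and SciPy 1.17.1, and figures drawn with matplotlib 3.10.9.

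The members, lists and tests were chosen with earlier results of these data known. Genes named are the 12 lowest changes at 8 d, members nearest the bounds, with the widest spread, with another probe set or on a pathway list, the 10 symbol genes within the bounds with the lowest change, and from each pathway list the 2 non-members with the largest step from 2 d to 8 d that the tables name; others were chosen after their values were seen. Word groups of gene products could not be formed, since 1 of 67 members had a descriptive name, and no sequence was used here. List genes with several probe sets were taken by the brightest.

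Same-numbered arrays of different groups had deviations from their group means that correlated at −0.09 to 0.11 over probe sets, and differently numbered ones at −0.09 to 0.11. Between 2 d and 8 d the same-numbered pairs had 0.08, 0.06 and 0.11, and the others −0.07 to −0.01. Between 0 d and 2 d the same-numbered pairs, at 0.01 to 0.04, were also the highest. Between 0 d and 8 d they had −0.09, 0.08 and −0.003, with others from −0.09 to 0.11. All these values are small, and whether the numbers pair the arrays is not settled by them.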

Additional observations from a re-analysis of the deposited data

Results flagged for a closer look

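The effect of 8 d differed from that of 2 d for all 32 measured genes of the photosynthesis lists outside the 67, as tested by the limma contrast of both times (adjusted p under 0.05), and all 32 were lower at 8 d. Of all probe sets 32.1% were lower in this contrast. The deposited table mostly leaves out probe sets that differ in no group. List genes without a change would therefore mostly be missing, and the count and p-values come after that selection. Values follow for 13 of them, taken as the up to 2 named genes of each list with the largest step in this same contrast, so their sizes are a description. The log2 changes from 2 d to 8 d were −2.62 for NdhN and −2.34 for NdhL of the NDH complex. On the list of assembly factors they were −1.99 for HCF101 and −2.09 for TAPX, which is a peroxidase and not an assembly factor. In chlorophyll synthesis they were −1.89 for CHLM and −1.70 for CHLI2, and in the Calvin cycle −1.72 for SBPASE and −1.51 for PRK. Photosystem II genes PSB27 and PSBY had −1.59 and −1.51, photosystem I genes PSAN and PSAE-1 had −1.09 and −0.73, and ATPC1, of the chloroplast ATP synthase, had −0.89. With 3 arrays a group no single array was tested as standing apart.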

How the results depend on the processing

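The number of locus-code probe sets within both bounds was 67 as analysed, 79 with a pseudocount of 1, 51 with 64, 79 with array medians set to equal, 91 after quantile normalization, 51 under the scaling on hybridization controls, 60 without the dimmest 25% of probe sets, and 62 to 77 without 1 array, where 57 to 67 of the 67 stayed. The median change of the 67 at 8 d was −1.80, and became −1.61 with a pseudocount of 64, −2.05 with array medians set to equal and −1.55 under the scaling on hybridization controls; the last 2 apply a factor to each array and shift the changes of all probe sets together. It was −1.83 to −1.78 without 1 array. No member's change at 8 d turned sign under the alternatives that gave it a value; none was computed under the replicate block, and only 60 of the 67 had one without the dimmest 25% of probe sets. The replicate number as a block gave 8115 calls for 2 d against 0 d (8160 without it), 10191 for 8 d against 0 d (10217) and 8507 for 8 d against 2 d (8534). Leaving out 1 array gave 7496 to 8197, 9969 to 10209 and 7919 to 8586. All 32 list genes stayed lower at 8 d than at 2 d in each alternative with 32 tested, and 31 of 31 without the dimmest 25% of probe sets. Signal over background is unknown and limits the values of dim genes.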
